A study of Mus musculus with 8 samples.

Results

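The clustered histone genes were the records of the deposited expression tables whose symbol starts with Hist1h, Hist2h, Hist3h or Hist4h, with a value, its confidence bounds and a span of at least 200 bases. They comprised 75 of 24487 records. They carried 68 symbols, 7 of which had 2 records each at different places. By the class of the encoded histone there were 6 records of H1, 22 of H2A, 19 of H2B, 14 of H3 and 14 of H4. The rule used names and spans only, but it was set with earlier results of these data known. In mm10, 57 records lay in the Hist1 cluster on chromosome 13, 14 in Hist2 on chromosome 3, 3 in Hist3 on chromosome 11 and 1, Hist4h4, on chromosome 6.

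Histones are the proteins around which nuclear DNA is wound. H2A, H2B, H3 and H4 form the core of the nucleosome, and H1 binds the linker DNA between cores. The clustered genes are replication dependent: their short, intronless mRNAs are made mainly in S phase and usually end in a stem-loop in place of a poly(A) tail, whereas replacement histones such as H2A.Z and H3.3 are made outside S phase too. Their mRNA is known to be abundant in cycling cells, and a library primed on poly(A) tails holds less of it.

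The libraries came from embryonic lung of C57BL/6 mice at embryonic day 14 (E14), E16 and E17, with ribosome labelling induced by tamoxifen. Translating ribosome affinity purification (TRAP) recovers the mRNA on tagged ribosomes of labelled cells, here through the ribosomal protein L10, and the labelled cells were Sox9 progenitors, the epithelial tip cells of the branching lung. At E14 and E17 a wild-type TRAP library and a wild-type whole lung library were made, 1 of each, and at E16 there were 2 wild-type and 2 Sox9-mutant TRAP libraries. The E14 reference is a supernatant in the design text but a homogenate in its label, and the E16 titles also carry E13. The driver of the labelling, the Sox9 alleles and any poly(A) selection are not given in the sources used here.

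Libraries held from 9783768 to 21500523 fragments, inferred from the confidence bounds. Values were FPKM (fragments per kilobase of record and per unit of mapped fragments), and thus per length. Mir762, a short record, held 50.05% of the FPKM total of wild-type replicate 1 and 34.0% of that of E17 TRAP, so a rescaling to equal totals lowers every other record there. Sox9 was at 35.9 and 36.4 FPKM in the wild type and at 12.8 and 11.03 in the mutant (log2 difference -1.53, limma with Benjamini-Hochberg adjustment, adjusted p = 0.000153). Nothing says that replicates came from separate animals, and the p-values then describe the spread among libraries alone.

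H2A genes of the Hist1 cluster made up most of the clustered histone signal in every library. The summed FPKM of the 22 H2A records was 2786 in TRAP and 1360 in whole lung at E14, and 1641 and 843 in the same order at E17. It was 3291 and 3235 in the E16 wild type and 1829 and 2517 in the mutant. This was between 77.3% and 89.3% of the FPKM of all 75 members. The other classes were far lower: over the 8 libraries H2B summed to between 92.8 and 207 FPKM, H4 to between 70.6 and 134, H3 to between 49.3 and 97.3 and H1 to between 19.3 and 37.1.

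**Figure D1:**
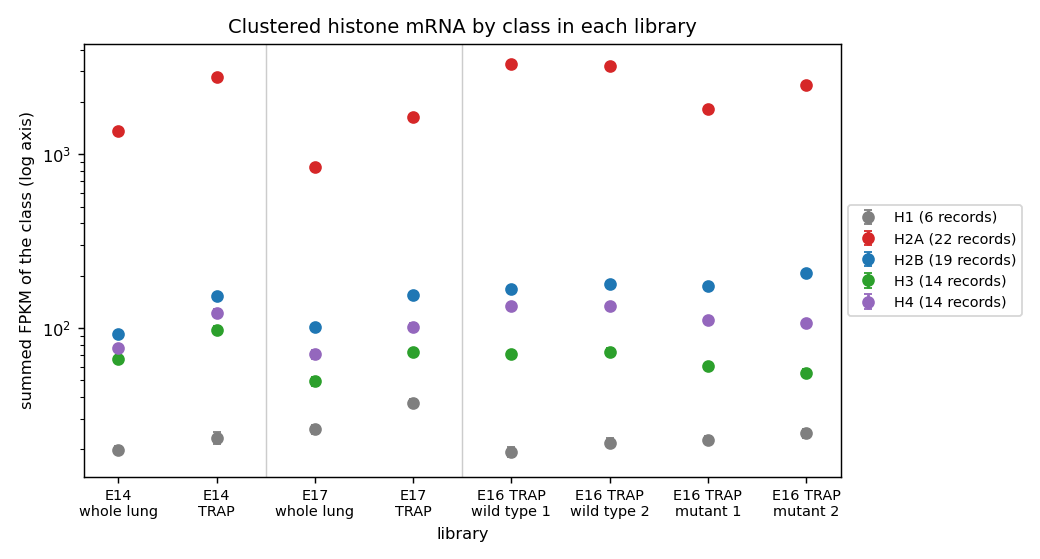
Summed FPKM (log axis) of each histone class in each of the 8 libraries. Points are sums over all records of the class. Bars, mostly smaller than the points, are standard errors read from the deposited bounds. H2A lies between 843 and 3291, above every other class in each library, and H1, between 19.3 and 37.1, lies lowest.

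Per record the picture was the same. The median of the mean FPKM over the 8 libraries was 56.3 for H2A, 4.87 for H4, 3.95 for H3, 3.05 for H2B and 1.48 for H1. Of the 15 Hist1 H2A records, 14 were above 18.5 FPKM in every library, and the exception was Hist1h2aa, a testis gene at 0 to 0.325. No record of another class exceeded 92.8 FPKM in any library. H2A and H2B enter the nucleosome in equal amounts, yet their records differed in level, and whether this reflects the transcripts or the way short, near-identical records were counted was not tested. The inferred fragments behind a class in a library ran from 4633 to 15841 for H2A, 729 to 1893 for H2B, 346 to 635 for H3, 330 to 711 for H4 and 165 to 426 for H1.

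The 3 records of each class with the highest mean FPKM over the 8 libraries are named here. In H2A they were both Hist1h2ao records (chr13:21833024-21833575 and chr13:21810367-21810918) and Hist1h2ag (chr13:22042478-22042949), which encode core H2A. The Hist1h2ao record starting at 21833024 was at 534 and 284 FPKM in E14 TRAP and whole lung and at 355 and 134 at E17. In E16 TRAP its wild-type values were 681 and 691, and its mutant values 385 and 578. Each of these records overlaps a Hist1h2ap record, and how fragments were divided among overlapping records is uncertain. Both Hist1h2ao records carried similar numbers of inferred fragments, such as 1123 and 1062 in E14 TRAP, and whether the same fragments were counted at both was not tested. In H2B the highest were Hist3h2ba, Hist1h2bc and Hist1h2bg, in H3 Hist1h3c, Hist1h3h and Hist1h3e, in H4 Hist1h4i, Hist1h4b and Hist1h4d, and in H1 Hist1h1c, Hist1h1d and Hist1h1e. Hist1h1c, which encodes the linker histone H1.2, was at 13.7 to 28.2 FPKM, while no other H1 record exceeded 4.02.

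Some members were at or near 0. Hist1h1t, a linker histone of male germ cells, was at 0.0786 to 0.406 FPKM, and Hist1h2ba, the testis H2B, at 0.607 to 1.32. Both Hist2h3c1 records were at most 0.00164 FPKM, but each overlaps a Hist2h3c2 record at up to 2.60. Both Hist2h3c2 records had the same FPKM in all 8 libraries, so counts of members hold 1 measurement 2 times. In all, 12 members had a mean below 1 FPKM. The gene models also differed: 6 H2B records (Hist1h2bp, Hist1h2bq, Hist1h2br, Hist1h2be, Hist1h2bc and Hist2h2be) spanned 1000 bases or more, up to 37455, while the median span over all members was 488 bases.

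Many Hist1 H2A genes start next to an H2B gene on the other strand, so that 1 stretch of DNA serves as the promoter of both. In RefSeq (GRCm38.p6), 10 such pairs had starts at most 600 bases apart, at 164 to 281 bases, and 8 had a promoter sequence on hand. The stretches between the starts of 4 pairs are shown because their genes differ in level and in how they changed; each runs from the H2A start to the H2B start, and capitals mark 3 motifs on either strand. These are CCAAT, the element bound by the factor NF-Y, the TATA box searched as TATAAA, and the octamer ATTTGCAT, which POU factors bind and which is known from H2B promoters.
Hist1h2ag and Hist1h2bj, chr13:22042950-22043197, plus strand: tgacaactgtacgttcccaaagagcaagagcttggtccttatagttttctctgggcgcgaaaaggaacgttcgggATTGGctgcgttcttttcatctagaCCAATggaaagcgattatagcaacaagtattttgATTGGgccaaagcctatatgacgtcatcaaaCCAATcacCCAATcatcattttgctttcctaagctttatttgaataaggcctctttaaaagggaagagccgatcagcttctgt
Hist1h2ah and Hist1h2bk, chr13:22035644-22035820, plus strand: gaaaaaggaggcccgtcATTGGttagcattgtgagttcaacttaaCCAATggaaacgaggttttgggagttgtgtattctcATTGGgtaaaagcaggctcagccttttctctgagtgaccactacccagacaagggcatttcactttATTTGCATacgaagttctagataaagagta
Hist1h2ae and Hist1h2bg, chr13:23571221-23571399, plus strand: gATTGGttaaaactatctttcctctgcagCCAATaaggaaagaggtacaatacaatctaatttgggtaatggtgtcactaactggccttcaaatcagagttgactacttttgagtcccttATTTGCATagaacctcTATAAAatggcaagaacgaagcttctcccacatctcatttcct
Hist1h2ao and Hist1h2bq, chr13:21810200-21810366, minus strand: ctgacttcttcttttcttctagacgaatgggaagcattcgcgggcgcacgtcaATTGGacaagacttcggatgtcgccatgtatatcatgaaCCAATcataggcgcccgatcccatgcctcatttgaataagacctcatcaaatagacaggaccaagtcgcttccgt
CCAAT was present in each of the 8 stretches, 5 times in that of Hist1h2ag and Hist1h2bj. The octamer was in 2 of them, those of Hist1h2ah with Hist1h2bk and of Hist1h2ae with Hist1h2bg, in both cases near the H2B start.

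The promoters of 3 members outside the pairs are shown for comparison, each as the 250 bases before the RefSeq start with the same capitals: Hist1h1c, which rose with stage, Hist1h3c, the highest H3 gene, and Hist1h4i, the highest H4 gene.
Hist1h1c, chr13:23738557-23738806, plus strand: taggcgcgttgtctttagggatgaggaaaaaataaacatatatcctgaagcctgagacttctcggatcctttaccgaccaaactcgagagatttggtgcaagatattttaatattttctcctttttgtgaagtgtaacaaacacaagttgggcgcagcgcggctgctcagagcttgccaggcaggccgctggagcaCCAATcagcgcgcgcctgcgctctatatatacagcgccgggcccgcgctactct
Hist1h3c, chr13:23745522-23745771, minus strand: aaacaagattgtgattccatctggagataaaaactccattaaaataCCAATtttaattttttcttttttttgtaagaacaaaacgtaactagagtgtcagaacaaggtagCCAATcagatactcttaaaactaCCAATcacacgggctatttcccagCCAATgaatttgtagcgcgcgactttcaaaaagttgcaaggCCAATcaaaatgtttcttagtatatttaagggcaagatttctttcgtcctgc
Hist1h4i, chr13:22041363-22041612, minus strand: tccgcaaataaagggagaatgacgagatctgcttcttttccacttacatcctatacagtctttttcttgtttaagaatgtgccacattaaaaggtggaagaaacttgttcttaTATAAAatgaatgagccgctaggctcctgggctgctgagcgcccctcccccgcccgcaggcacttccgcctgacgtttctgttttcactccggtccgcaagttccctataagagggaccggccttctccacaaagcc
Hist1h3c held CCAAT 5 times, Hist1h1c held it 1 time, and Hist1h4i held none but 1 TATAAA.

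Over all members, promoter windows (250 bases before to 50 after the start) were found for 62 genes. CCAAT on either strand was in 53 of 62 windows (85.5%), against 37.4% of 32851 windows of all genes. It was in every window of H1 (6), H2A (18), H2B (16) and H3 (10), but in only 3 of the 12 of H4. TATAAA was in 35 of 62 windows (56.5%), against 13.6%. ATTTGCAT was in 14 windows, 7 of H2A and 7 of H2B, and in none of H1, H3 or H4, against 1.74% of all windows. Divergent pairs share bases of their windows, and none of the 3 motifs contains another. A match describes the letters only, not binding.

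Within the pairs the H2A gene was higher than its H2B neighbour in each of 72 comparisons of 9 pairs in 8 libraries, leaving out the testis pair Hist1h2aa and Hist1h2ba, which was near 0. The ratio of FPKM ran from 2.93 to 732, with a median of 19.9. Hist1h2ag was at 456 and 201 FPKM in TRAP and whole lung at E14 and at 222 and 105 at E17, where Hist1h2bj was at 6.11 and 5.56 and at 5.53 and 6.27. In E16 TRAP the wild-type values of Hist1h2ag were 558 and 444 and the mutant values 320 and 334, with Hist1h2bj at 9.19 and 7.81 and at 8.74 and 7.31. Hist1h2ag thus spanned a wide range while Hist1h2bj stayed between 5.53 and 9.19. The smallest ratios belonged to Hist1h2ae with Hist1h2bg, at 2.93 to 8.71. The highest, at 164 to 732, belonged to Hist1h2ao with Hist1h2bq, whose H2B model spans 3788 bases, and a fragment count over a long model gives a lower FPKM.

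**Figure D2:**
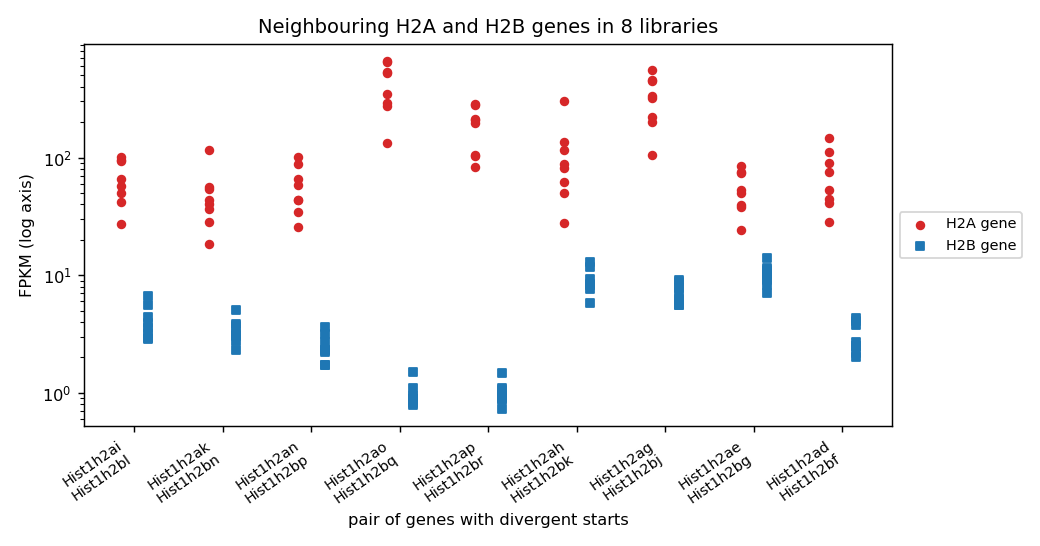
FPKM (log axis) of the H2A gene (circles) and the H2B gene (squares) of 9 divergent pairs, with 1 point for each of the 8 libraries. The H2A points lie above the H2B points of the same pair in every library, by 2.93 to 732 times.

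TRAP was set against whole lung to ask which transcripts were higher on the ribosomes of the labelled cells than in the RNA of the organ. How much of a transcript the cells hold and how much of it is on ribosomes cannot be told apart here. Clustered histone genes were higher in TRAP. Of 67 members past the filter (a mean of 1 FPKM over the 4 libraries), 35 rose and 0 fell (limma on log2 of FPKM + 1, Benjamini-Hochberg adjustment over 12320 records), with 23.6% of all records tested higher and 17.1% lower. The members' median log2 difference was 0.55, and that of all records 0.05. By class, 15 of 19 H2A, 8 of 18 H2B, 5 of 12 H3 and 7 of 13 H4 records rose. With limma-voom on inferred fragments these counts were 12, 1, 0 and 2, with 0 H3 records at an unadjusted p under 0.05. Of 5 H1 records none passed (1 at an unadjusted p under 0.05, 0 with limma-voom), with log2 differences of 0.15 to 0.61. At an unadjusted p under 0.05 no member was lower, nor with limma-voom. Among all 12320 records 6288 lay under that p in either direction, and 5589 of 12312 with limma-voom.

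Summed FPKM of H2A was 2.05 times as high in TRAP as in whole lung at E14 and 1.95 times at E17. The ratios were 1.64 and 1.53 for H2B, 1.60 and 1.44 for H4, 1.47 and 1.47 for H3 and 1.18 and 1.42 for H1; rescaled to equal totals, the E17 log2 ratios of H2B, H3, H4 and H1 turned to -0.0049, -0.06, -0.09 and -0.11, while that of H2A was 0.34. H2A thus stood highest at both stages, without a test of the difference between classes.

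Among H2A genes the largest difference was that of Hist1h2ah (chr13:22035122-22035643). Its TRAP and whole lung values were 135 and 50.2 FPKM at E14 and 62.4 and 27.6 at E17. Both TRAP values lay above both whole lung values (log2 1.28, SE 0.11, adjusted p = 0.0013). The Hist1h2ao record starting at 21833024 rose by 1.16 (SE 0.14) and Hist1h2ag by 1.13 (SE 0.09). Of the 14 Hist1 H2A records tested, 13 rose, and of the 5 of Hist2 and Hist3, 2 did. Both groups include overlapping records, such as those of Hist1h2ao and Hist1h2ap, so these are not counts of separate genes. Hist3h2a, the H2A gene of Hist3, was at 28.9 and 31.2 FPKM in TRAP and 24.5 and 32.7 in whole lung, with a log2 difference of 0.08 that turned to -0.30 with equal totals.

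Hist3h2ba (chr11:58948911-58949372) is an H2B gene of the Hist3 cluster. Its TRAP and whole lung values were 61.8 and 16.05 FPKM at E14 and 30.9 and 16.7 at E17 (log2 1.36, SE 0.24, limma adjusted p = 0.0095). The difference at E14 was the larger of both stages. Of the 6 H2B records spanning 1000 bases or more none passed, with log2 differences between -0.26 and 0.54, and of the 12 shorter ones 8 rose, with all 12 between -0.0193 and 1.36. These ranges overlapped, the split was made after the values were seen, and its difference was not tested. Hist1h2bc was at 18.8 and 22.7 FPKM in E14 TRAP and whole lung and at 40.3 and 31.5 at E17, with opposite directions at the stages (log2 0.04, and -0.33 with equal totals).

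In H4, Hist1h4f (chr13:23551286-23551643) had TRAP and whole lung values of 6.09 and 1.71 FPKM at E14 and of 7.18 and 2.27 at E17 (a log2 difference of 1.36, SE 0.16, adjusted p = 0.0029). Hist2h4 (chr3:96262934-96263317) was low, at 3.09 against 0.639 and 2.30 against 0.218, and its log2 difference was 1.38 (SE 0.20). Hist1h4i, the highest H4 gene, was at 47.0 against 26.5 at E14 but at 27.8 against 28.0 at E17 and did not pass (log2 0.40, adjusted p = 0.16). Hist1h3c, the highest of H3, was at 27.0 against 19.3 and 19.5 against 13.0, and rose by 0.51 (SE 0.11).

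At 2-fold or more, with no test, 10 of 67 members were higher and 0 lower at E14 (6.11% and 9.58% of all records), and 14 of 64 higher and 0 lower at E17 (4.85% and 9.13%). Among members whose higher value reached 5 FPKM, the largest log2 ratios at E14 were those of Hist3h2ba, Hist1h2an (101 against 34.3) and the Hist1h2ap record starting at 21833024 (284 against 103). At E17 they were those of both Hist1h2ao records and Hist1h4f. No member was past 2-fold in opposite directions at E14 and E17.

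Other gene groups can be read against the 23.6% of all records higher and 17.1% lower. Of 30 S-phase genes, 17 rose in TRAP and 0 fell. Those that rose included Gins2, a subunit of the replicative helicase complex (log2 0.79), and Mcm7, a subunit of the helicase itself (0.56). Pola2, a subunit of DNA polymerase alpha, rose as well (0.60). Of 11 replacement histone genes, 8 rose and 0 fell, among them H2afv (0.72) and H3f3b (0.62). Of 18 chaperone and deposition genes 6 rose and 1, Hjurp, which places the centromeric histone, fell (-0.93); of 13 histone mRNA processing genes 2 rose and 0 fell, and Slbp, the stem-loop binding protein, was at 84.5 and 66.7 FPKM in TRAP and 66.9 and 61.1 in whole lung. Markers shifted as well: 10 of 10 lung epithelium genes rose, while 11 of 11 mesenchyme, 10 of 10 endothelium, 5 of 6 erythroid and 8 of 9 leukocyte genes fell. Of 6 RNAs with no poly(A) tail that were found, 2 passed the filter, Rmrp and Rpph1. In E14 TRAP they were at 0 and 1.08 FPKM against 28.8 and 10.6 in whole lung. At E17 they were at 0 and 0.641 against 45.9 and 12.6. Terc did not pass the filter, at 0.363 against 0.450 at E14 and 0.217 against 0.205 at E17. The rest were at most 0.27 FPKM in the E14 and E17 libraries. The part of these shifts in the histone result was not tested. In such bulk samples, fewer cells of a type and less RNA per cell cannot be told apart.

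The p-values of this fit measure only the disagreement between the stages. Rescaled to equal totals, which shifts the median of all records by -0.35, 8 members were higher and 1 lower. Centred on the median record, 37 were higher and 0 lower, and 5176 of all 12320 records passed. Rescaled without records under 200 bases, 30 were higher and 0 lower, and 5040 of all 12280 records passed. With limma-voom 15 were higher, where 4110 of all 12312 records passed in either direction. Without a filter on low values 0 of 75 members and 0 of all 24487 records passed (limma). There 20 members were higher at an unadjusted p under 0.05, with 5746 of all records under it in either direction.

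**Figure D3:**
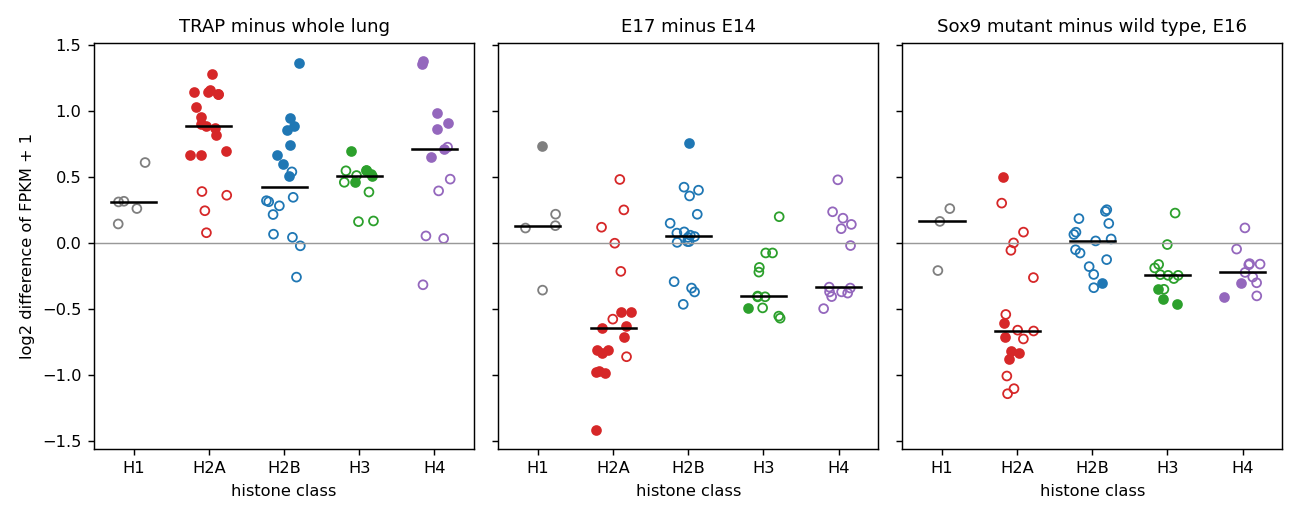
Log2 difference of FPKM + 1 of each member past the filter, by histone class, for TRAP minus whole lung, E17 minus E14 and Sox9 mutant minus wild type; filled points passed the limma test, open points did not, and bars are class medians. H2A has the highest class median in the first panel (0.89) and the lowest in the others (-0.64 and -0.66).

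The comparison of E17 with E14 asked what changed as the lung matured. H2A genes fell, while Hist1h1c and Hist1h2bc rose. Of 67 members tested, 13 fell and 2 rose (stage term of the same limma fit), with 6.36% of all records lower and 9.51% higher. Of those that fell, 12 were H2A and 1 was the H3 gene Hist1h3c. With limma-voom 7 fell, each of them H2A, and none rose (0, with 3 higher at an unadjusted p under 0.05), the adjusted p of Hist1h1c being 0.090 and that of Hist1h2bc 0.098. No H4 record passed (2 lower and 0 higher at an unadjusted p under 0.05, 0 with limma-voom). Among all 12320 records 4209 lay under that p in either direction, and 3480 of 12312 with limma-voom.

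Summed FPKM of H2A at E17 was 0.589 of that at E14 in TRAP and 0.620 in whole lung. It was 0.743 and 0.744 for H3, 0.831 and 0.925 for H4, 1.02 and 1.09 for H2B, and 1.58 and 1.31 for H1. As deposited, the ratio of each class thus lay on the same side of 1 in TRAP and whole lung. For 2 of these values the change was about the size of the standard error read from the bounds, or less. H2B in TRAP went from 152 to 155 FPKM (SE 6.34 and 4.80), and H4 in whole lung from 76.4 to 70.6 (3.46 and 3.92). With equal totals the TRAP log2 ratio of H2B turned to -0.48, and without Hist1h1c that of H1 turned to -0.13.

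Hist1h2ag fell from 456 to 222 FPKM in TRAP and from 201 to 105 in whole lung (log2 -0.98, SE 0.09, adjusted p = 0.0065). Hist1h2ah changed by -0.97 (SE 0.11), the Hist1h2ao record starting at 21833024 by -0.83 (SE 0.14) and Hist1h2ae by -0.62 (SE 0.10). Of 14 Hist1 H2A records tested, 11 fell. In each of these 11 the E17 TRAP value lay above the E14 whole lung value, so the stages overlapped when the fractions were pooled. Hist2h2aa2 at chr3:96245457-96246052 was the exception, at 3.98 and 2.41 FPKM at E14 and 1.38 and 0 at E17 (log2 -1.42, SE 0.25, adjusted p = 0.026), but it overlaps a Hist2h2aa1 record at 6.01 and 3.66 and at 7.54 and 6.47, and their division of fragments is uncertain. Hist3h2a did not pass, at 28.9 and 24.5 FPKM at E14 and 31.2 and 32.7 at E17.

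The H2B neighbours of the H2A genes did not pass the stage test. In each of 9 divergent pairs tested, the log2 difference between stages was lower for the H2A gene than for the H2B gene, a difference that was not tested for any pair. These H2B genes were low, from 0.732 (Hist1h2br, E17 whole lung) to 14.1 FPKM (Hist1h2bg, E17 TRAP). At such levels log2 of FPKM + 1 understates change, and a change is harder to detect. Some of the H2A records overlap others. At an unadjusted p under 0.05 the stage term called 2 H2B records of all those tested, both higher. Hist1h2bj, next to Hist1h2ag, was at 6.11 and 5.53 FPKM in TRAP and 5.56 and 6.27 in whole lung (log2 0.01, and -0.22 with equal totals). Hist1h2bk, next to Hist1h2ah, was at 12.8 and 11.7 in TRAP and 8.29 and 5.76 in whole lung (-0.29).

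Hist1h1c (chr13:23738807-23739531) rose from 13.7 to 28.2 FPKM in TRAP and from 13.6 to 19.5 in whole lung (log2 0.74, SE 0.15, adjusted p = 0.035). Hist1h2bc (chr13:23684199-23692480) rose from 18.8 to 40.3 in TRAP and from 22.7 to 31.5 in whole lung (log2 0.76, SE 0.16, adjusted p = 0.038). In both genes each E17 value lay above each E14 value. The replacement linker histone H1f0, which builds up in cells that leave the cycle, rose as well, from 256 to 475 FPKM in TRAP and from 204 to 317 in whole lung (log2 0.76, adjusted p = 0.017).

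At 2-fold or more, with no test, 6 of 68 members were lower and 2 higher in TRAP (1.91% and 4.75% of all records), and 3 of 60 were lower and 0 higher in whole lung (1.3% and 4.83%). In TRAP the lower ones with the largest log2 ratio, among those reaching 5 FPKM, were the Hist1h2ap record starting at 21833024 (284 to 105 FPKM), Hist1h2an (101 to 43.2) and Hist1h2ah (135 to 62.4), and Hist1h2bc was among those higher. In whole lung both Hist1h2ao records were lower, at 284 to 134 and 274 to 134.

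Of the 30 S-phase genes 10 fell and 0 rose between the stages, among them the cyclin gene Ccne1 (log2 -0.99), the ribonucleotide reductase gene Rrm2 (-0.57) and the helicase genes Mcm4 (-0.54) and Mcm2 (-0.57). Of the chaperone genes 5 of 18 fell and 0 rose, among them Ssrp1 and Supt16, the subunits of FACT (-0.46 and -0.50). Of 13 processing genes 2 fell and 1 rose, and Slbp did not pass (-0.23). Of 11 replacement histone genes, H2afy2 (-0.96) and H2afy (-0.50), both macroH2A, fell and H1f0 rose. Endothelial markers rose in 7 of 10 and leukocyte markers in 3 of 9, with 0 lower in either. Of 10 epithelial markers 3 rose and 0 fell, the surfactant gene Sftpc by 5.19, and of 11 mesenchyme markers 1 rose and 1 fell. Of 6 erythroid markers 2 rose and 3 fell, among these the embryonic globin genes Hbb-y (-4.48) and Hba-x (-3.34). The part of these shifts in the histone result by stage was not tested.

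The p-values here measure only the disagreement between TRAP and whole lung. Rescaled to equal totals, which shifts the median of all records by -0.24, 7 members were lower and 0 higher (0 higher at an unadjusted p under 0.05). Centred on the median record, 12 were lower and 2 higher, and 1831 of all 12320 records passed. Rescaled without records under 200 bases, 17 were lower and 2 higher, and 2796 of all 12280 records passed. Without a filter no member passed, and 0 of all 24487 records did. There 13 members were lower and 1 higher at an unadjusted p under 0.05, with 3618 of all records under it in either direction.

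The comparison of E16 mutant with wild type asked what changes in the ribosome-bound mRNA of the labelled cells when Sox9 is mutated. Most clustered histone genes that passed were lower in the mutant. Of 59 members tested, 11 fell and 1 rose (limma with Benjamini-Hochberg adjustment over 11872 records), with 14.3% of all records lower and 17.4% higher. The share lower, 18.6%, was near that background. The members' median log2 difference was -0.22, and that of all records 0.01. Of those that fell, 5 were H2A, 3 H3, 2 H4 and 1 H2B. With limma-voom these counts were 8, 0, 1 and 0 (at an unadjusted p under 0.05, 1 H3 and 0 H2B records were lower). Of 3 H1 records none passed (1 higher at an unadjusted p under 0.05 with limma and with limma-voom). Among all 11872 records 5152 lay under that p in either direction, and 4831 of 11866 with limma-voom.

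Summed FPKM of H2A was 3263 ± 39.6 in the wild type and 2173 ± 486 in the mutant (SD, n = 2 each), a ratio of 0.666. Mutant replicate 1 at 1829 and replicate 2 at 2517 both lay below the wild type at 3291 and 3235, but they differed from each other much more than the wild-type replicates did. H3 was at 71.9 ± 1.76 against 57.8 ± 3.68 and H4 at 134 ± 0.186 against 109 ± 3.59, with no overlap, but with equal totals their log2 ratios turned from -0.32 and -0.30 to 0.06 and 0.08. H2B, at 174 ± 7.47 against 190 ± 23.3, overlapped, and H1 was at 19.3 and 21.9 against 22.7 and 24.8, but at a log2 ratio of -0.13 without Hist1h1c. No p is given for these sums.

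In Hist1h2ag both mutant values (320 and 334 FPKM) lay below both wild-type values (log2 -0.60, SE 0.11, adjusted p = 0.010). Hist1h2ai was at 92.7 and 95.5 FPKM in wild-type and 49.9 and 65.4 in mutant libraries (log2 -0.71, SE 0.12, adjusted p = 0.0089). Hist1h2ae fell from 79.9 ± 7.50 to 45.4 ± 10.1 FPKM (mean ± SD over 2 libraries; log2 -0.81, SE 0.15), Hist1h2af from 64.1 ± 4.73 to 35.2 ± 10.1 (-0.87, SE 0.18) and Hist1h2ac from 187 ± 9.91 to 108 ± 35.7 (-0.83, SE 0.21). These 5 were the H2A genes that fell. In each both mutant libraries were below both wild-type libraries, which adds no separate support, since the test used the same libraries.

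Other H2A genes had differences as large but did not pass. Hist1h2ah had wild-type values of 306 and 116 FPKM and mutant values of 88.6 and 81.3, so that the wild-type libraries differed widely (log2 -1.14, adjusted p = 0.090). The Hist1h2ao records had log2 differences of -0.54 and -0.72, with mutant replicate 2 at 578 and 537 FPKM close to the wild type at 651 to 691. Of the 14 Hist1 H2A records tested, 13 had a log2 difference below 0, where the median of all records was 0.01, and 5 passed. The 14 include overlapping records and are not separate genes. Hist1h2an (65.6 and 58.9 against 88.5 and 43.8 FPKM) was not below 0, though its difference was -0.05 when libraries were centred on the median record. Outside Hist1, Hist2h2aa1 at chr3:96239779-96240334 was the 1 member that rose, with 5.03 and 3.89 FPKM in wild-type and 6.12 and 7.32 in mutant libraries (log2 0.50, SE 0.13, adjusted p = 0.035), and it overlaps a Hist2h2aa2 record at 2.29 and 2.98 in the same wild-type libraries and 0 and 1.84 in the mutant ones. Hist3h2a was at 28.4 and 30.3 against 32.6 and 40.8 (log2 0.30, adjusted p = 0.086).

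**Figure D4:**
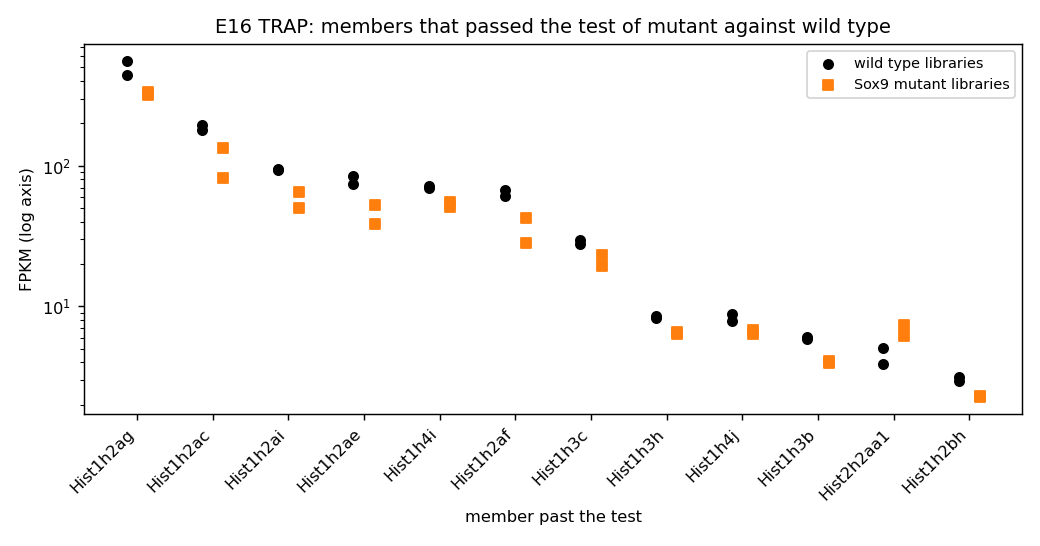
FPKM (log axis) in the 4 E16 TRAP libraries of the 12 members that passed the test, ordered by wild-type mean; circles are the 2 wild-type libraries and squares the 2 Sox9 mutant libraries. The groups do not overlap in any of the 12, but these were picked by a test on the same libraries, so this adds no separate support. Hist2h2aa1 is the 1 gene higher in the mutant.

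In H4, Hist1h4i (chr13:22040960-22041362) had wild-type values of 71.4 and 69.7 FPKM and mutant values of 51.1 and 55.0 (log2 -0.41, SE 0.05, adjusted p = 0.0038). Hist1h4j changed by -0.30 (SE 0.08). In H3, Hist1h3c was at 27.9 and 29.6 against 23.1 and 19.5 (-0.42, SE 0.09), Hist1h3b changed by -0.46 (SE 0.07) and Hist1h3h by -0.34 (SE 0.07). The H2B gene that fell was Hist1h2bh, from 3.06 ± 0.134 to 2.29 ± 0.0357 FPKM (log2 -0.30, adjusted p = 0.049). With equal totals the differences of Hist1h4i, Hist1h4j, Hist1h3c, Hist1h3h and Hist1h2bh turned to between 0.01 and 0.10. With limma-voom Hist1h4i passed (adjusted p = 0.022), but the adjusted p was 0.52 for Hist1h4j, 0.10 for Hist1h3c, 0.24 for Hist1h3b, 0.32 for Hist1h3h and 0.46 for Hist1h2bh. Hist3h2ba, the highest H2B gene, was at 68.0 and 73.1 against 76.5 and 92.8 and did not pass (0.25). Hist1h1c was at 15.4 and 17.5 against 19.1 and 20.7, and did not pass (log2 0.26, adjusted p = 0.057).

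In 6 of the 7 divergent pairs with both genes tested, the H2A gene had the lower log2 difference. That contrast was not tested for any pair, and the H2B genes were again low, where log2 of FPKM + 1 understates change. Hist1h2bj was at 9.19 and 7.81 against 8.74 and 7.31 (log2 -0.07), beside Hist1h2ag at -0.60, and Hist1h2bg was at 9.78 and 10.3 against 11.1 and 11.4 (0.15), beside Hist1h2ae at -0.81.

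Of 30 S-phase genes 7 fell and 2 rose. Gins1 (log2 -0.38) and the clamp loader gene Rfc4 (-0.31) fell, while Ccne1, which encodes cyclin E1, rose by 1.11 and Tk1, a thymidine kinase, by 0.27. Of 11 replacement histone genes 4 fell, H2afy2 (-0.45), Cenpa (-0.31), H2afz (-0.29) and H2afv (-0.16), and H2afj rose (0.61). Of 18 chaperone genes 6 fell, among them Chaf1b of the replication-coupled assembly factor (-0.24) and Nasp, an H1 and H3 chaperone (-0.23), and Asf1b rose (0.26). Of 14 processing genes 1 rose and 1 fell, and Slbp was at 59.3 and 57.5 FPKM against 59.6 and 59.6. Epithelial markers rose in 6 of 10 and fell in 2, Nkx2-1 (-0.29) and Sftpc (-4.60, adjusted p = 2.0e-05). Of 12 mesenchyme markers 1 rose and 1 fell, and of 8 endothelial markers tested 0 rose and 2 fell. Mesenchyme markers summed to 111 and 151 FPKM in wild-type and 74.4 and 139.9 in mutant libraries, and endothelial markers to 71.0 and 88.0 against 59.3 and 45.6. Their part in the histone result was not tested.

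Which members passed depended on the libraries. Without wild-type replicate 2, 5 fell and 0 rose (3 higher at an unadjusted p under 0.05); without wild-type replicate 1, 7 fell and 1 rose; without mutant replicate 1, 15 fell and 4 rose; and without mutant replicate 2, 16 fell and 1 rose. Rescaled to equal totals, which shifts the median of all records by 0.40, 0 members passed, against 232 of all 12014 records. At an unadjusted p under 0.05, 1 member was lower there, with 745 of all records under it in either direction. Centred on the median record, 14 fell and 1 rose, and 4085 of all 11872 records passed. Rescaled without records under 200 bases, 10 fell and 6 rose, and 3970 of all 11845 records passed. With limma-voom on inferred fragments 9 fell and 1 rose, and 3541 of all 11866 records passed.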

How the data were processed

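Expression was measured by RNA-seq in 8 libraries. The authors deposited 1 table per library with FPKM and its lower and upper bounds for each record, per the file headers. The submitters' processing notes name mm10, TopHat2 2.0.14, Bowtie2 2.2.3, Cufflinks 2.2.1 and Cuffnorm. The sources used here do not say how libraries were scaled or multiply mapped fragments treated, so levels of near-identical histone genes, and sums over them, are uncertain. Short records are also those whose FPKM depends most on the assumed fragment length.

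Libraries were grouped by their titles and labels. Values were used as deposited. The standard error of a value was read as its distance to the upper bound over 2, and fragments as the square of value over standard error. They do not cover the spread between libraries. In overlapping records the inferred fragments did not keep step with FPKM. In wild-type replicate 1 the Hist1h2ao record starting at 21810367 had 651 FPKM and 1603 inferred fragments over 552 bases. Hist1h2ac had 194 FPKM and 1342 over 487 bases. What else the bounds hold there was not tested, and limma-voom on these fragments is not a check on true counts. Tests used limma 3.58.1 in R 4.3.3 (eBayes with trend, two-sided, Benjamini-Hochberg adjustment at 0.05) on log2(FPKM + 1), which understates the change of low records, over all records whose mean reached 1 FPKM. The mutant fit had 2 residual degrees of freedom (3.73 prior), and the additive fit of fraction and stage had 1 (4.47 prior). Single libraries were compared at 2-fold with no test. The scripts were tested on simulated data. Replicates differed by more than the error read from the bounds and were kept apart. The median squared difference in units of that error was 1.16 and 1.39, against 5.94 between genotypes.

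The members and the gene lists were chosen with earlier results of these data known. Named members were the 3 highest of each class, up to 5 in each direction per test with groups that did not overlap, and up to 3 per single-library comparison with at least 5 FPKM, and other lists gave up to 4. Other members named, among them Hist3h2a, Hist1h2bj, Hist1h2bk, Hist1h2bh, Hist1h3b, Hist1h4j and the records at or near 0, and from the other lists Slbp and, in the mutant, H2afv, were chosen after their values were seen. RefSeq (GRCm38.p6) matched 69 of 75 members, 62 of them with the same start or end. Coding lengths and protein identity, planned for the gene models, were not used here, and spans took their place.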

Additional observations from a re-analysis of the deposited data

How the results depend on the processing

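Counts of members past the test changed most with the scaling and the filter. When libraries were rescaled to a common total FPKM, no member was higher (0) or lower (0) in the mutant, where 232 of all 12014 records passed. In TRAP 8 were higher and 1 lower, and at E17 7 were lower and 0 higher. Mir762 holds 50.05% of 1 of those totals. With records under 200 bases left out before rescaling, 10 members were lower and 6 higher in the mutant. In TRAP 30 were higher and 0 lower, and 17 were lower and 2 higher at E17. Centred on the median record, 14 were lower and 1 higher in the mutant. In TRAP 37 were then higher and 0 lower, and 12 were lower and 2 higher at E17. Without a filter, with all 24487 records tested, 0 members passed in the mutant, TRAP and stage comparisons, against 1187, 0 and 0 of all records. At an unadjusted p under 0.05, 10 members were lower, 20 higher and 13 lower in the same order. All records under that p, in either direction, were 5655, 5746 and 3618. At 5 FPKM 2 members were higher in the mutant and 22 in TRAP, with fewer members tested. With limma-voom 15 were higher in TRAP, and 7 lower and 0 higher at E17 (3 higher at an unadjusted p under 0.05, and 0 rescaled), and at a pseudocount of 0.1, 1 was higher at E17; the cause was not tested. Leaving out 1 library each, 5 to 16 members were lower and 0 to 4 higher in the mutant. At 2-fold, 16 members were higher in E14 TRAP at a pseudocount of 0.1, and in E17 TRAP 2 rescaled and 9 at 5 FPKM. From E14 to E17 in TRAP 1 was higher rescaled, 4 at a pseudocount of 0.1 and 1 at 5 FPKM, and 20 were lower rescaled; in whole lung 5 were lower without short records.

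Class sums are given as log2 ratios. For H2A the mutant ratio was -0.22 rescaled and -0.835 to -0.375 with 1 library left out. TRAP over whole lung at E14 was 0.87 rescaled, 0.91 without short records and 1.09 centred on the median record, and at E17 it was 0.34, 0.90 without short records and 0.86 without the highest member. E17 over E14 was -1.27 in TRAP rescaled, and in whole lung -0.80 without short records and -0.60 without the highest member. Rescaled, the E17 ratio of TRAP over whole lung was -0.109 for H1, -0.004895 for H2B, -0.0649 for H3 and -0.0937 for H4, the E14 ratio 0.549 for H2B, the mutant ratio 0.547 for H1, 0.483 for H2B, 0.0601 for H3 and 0.0838 for H4, and the TRAP stage ratio 0.158 for H1, -0.479 for H2B, -0.933 for H3 and -0.772 for H4. Without the highest member H1 was at -0.129 in the mutant, 0.624 in TRAP over whole lung at E14, -0.131 between stages in TRAP and 0.0604 in whole lung; H2B at 0.234 in TRAP at E14 and 0.458 between stages in TRAP; H3 at -0.243 in the mutant; and H4 at -0.183 in the mutant, 0.788 in TRAP at E17 and -0.0288 between stages in TRAP. Without short records the mutant ratio was -0.244 for H3 and -0.227 for H4, which was -0.351 centred and -0.333 to -0.265 with 1 library left out.

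The log2 difference of some single members reversed its sign. Rescaled, the mutant difference was 0.335 for Hist1h2bj, 0.0117 for Hist1h2bh, 0.0538 for Hist1h3h, 0.0203 for Hist1h3c, 0.103 for Hist1h4j and 0.0476 for Hist1h4i, that of TRAP -0.297 for Hist3h2a and -0.334 for Hist1h2bc, and that of stage -0.0146 for Hist3h2a and -0.218 for Hist1h2bj. Without short records they were -0.0104 for Hist3h2a and -0.0451 for Hist1h2bc in TRAP and -0.0515 for Hist1h2bj by stage, which was -0.0205 centred and -0.0150 with limma-voom. In the mutant Hist1h2an was -0.0452 centred and -0.496 to 0.502 with 1 library left out, past the test in opposite directions without mutant replicate 1 (-0.496, limma adjusted p = 0.0050) and without mutant replicate 2 (0.502, adjusted p = 0.0051), and Hist1h2bj -0.189 to 0.0406.

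The wild-type and mutant libraries share replicate numbers, which the labels tie to nothing, and deviations of same-numbered libraries were uncorrelated (r = 0.0072 over 11872 records). With the replicate number as a block, 15 members were lower and 4 higher. The 12 members with a mean under 1 FPKM over the 8 libraries rest on few fragments, which limits what could be detected in them.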
